A study of Mus musculus with 6 samples.

Results

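Formation of new neurons in the adult hippocampus was examined through 9 genes, chosen by name as standard labels of that lineage. Nes, Mki67 and Eomes mark stem and dividing cells, Neurod1, Sox4 and Sox11 are transcription factors of neuronal commitment, and Dcx, Igfbpl1 and Draxin mark immature neurons. Of the 9 genes, 7 had a row among the 20620 genes of the count table, and all 7 passed the filter on low counts. Eomes and Igfbpl1 were not analysed here.

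Hippocampi of 6 male mice, kept on the C57BL/6J strain background, gave 1 RNA library each. The 3 n-Braf mice, aged 33, 32 and 34 weeks in the order of their replicate numbers, had the genotype Braf Q241R/+ ;CaMKII-Cre. CaMKII is a gene of mature forebrain excitatory neurons, and the series was designed to have the mutant kinase made in those cells. The 3 control mice, aged 32, 32 and 31 weeks, had the genotype Braf Q241R Neo/+, in which the same mutant allele keeps its Neo cassette and no Cre is listed. Both groups therefore carried 1 Braf allele with the Q241R substitution, which the series uses to model cardio-facio-cutaneous syndrome. Cre and the loss of Neo differ between the groups together with the mutant protein, and their effects cannot be told apart. No wild-type hippocampus was analysed here. The comparison addresses whether mice that express the mutant in mature neurons differ in the genes of the younger cells that precede them.

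In the adult mouse, stem cells at the inner edge of the dentate granule layer divide and give rise to intermediate progenitors, which become neuroblasts and then granule neurons. Nestin filaments mark the stem cells, Ki-67 marks any cell in cycle, the T-box factor Eomes marks the intermediate progenitors, and doublecortin marks neuroblasts and young neurons for some weeks. The lineage is a small part of the tissue and declines with age. In whole-tissue RNA, fewer cells of a type and less RNA per cell cannot be told apart.

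The libraries held between 25227112 and 31832245 assigned counts. Levels are given as CPM, the count normalised to sequencing depth, with TMM factors (trimmed mean of M values) applied to the library sizes. Braf, the targeted gene, had 191 ± 12.1 CPM in n-Braf mice and 119 ± 4.18 CPM in the controls (SD, n = 3 each), without overlap. Genes of hippocampal neurons were present in every library, among them Prox1, a factor of dentate granule neurons, between 79.8 and 147.6 CPM in n-Braf mice and between 95.6 and 123.0 CPM in the controls. Controls 1 and 2 stood apart in choroid plexus markers. The 12 tested markers summed to between 92.4 and 112.1 CPM in the n-Braf libraries and 141.7 CPM in control 3, against 3648 CPM in control 1 and 2058 CPM in control 2.

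The neurogenesis genes showed no difference between n-Braf and control mice that passed the test. All 7 were expressed in every library, the groups overlapped in each, and fitted folds lay between 0.96 for Sox4 and 1.081 for Neurod1. In edgeR's quasi-likelihood test, with Benjamini-Hochberg adjustment over all 20604 genes tested, 0 of 7 passed an adjusted p of 0.05, and the smallest adjusted p was 0.953, for Neurod1. Braf, at a fold of 1.61, had an adjusted p of 0.053 and also missed the threshold, and this test called 0% of all genes. At an unadjusted p of 0.05 it placed 0 of 7 genes past the threshold, against 6.82% of all genes, and DESeq2, which gave an adjusted p to 18571 genes and not to Draxin, called 0 of the other 6 genes against 0.425% of those 18571. Separation of the 3 n-Braf libraries from the 3 controls occurred in 0 of 7 genes, against 11.5% of all genes (6.09% higher and 5.44% lower in n-Braf). Of the 7 genes, 4 were higher and 3 lower in n-Braf, while 49.0% of all genes tested were higher. The median log2 fold change of the 7 was 0.013, beside -0.0042 over all genes.

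The intervals show what size of difference these 6 libraries could hold, and a p that misses the threshold does not show equal levels. For Sox11 the 95% interval of the fold ran from 0.831 to 1.15, and for Sox4 from 0.796 to 1.16. It ran from 0.836 to 1.31 for Nes, from 0.850 to 1.38 for Neurod1, and from 0.749 to 1.27 for Mki67. Dcx had a wider interval, from 0.746 to 1.44, and Draxin, which has few counts, the widest, from 0.486 to 2.10. Changes of these genes within those bounds remain possible. The bounds are not limits of detection, since Braf, at a fold of 1.61 (interval 1.45 to 1.79), also missed the adjusted threshold.

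**Figure D1:**
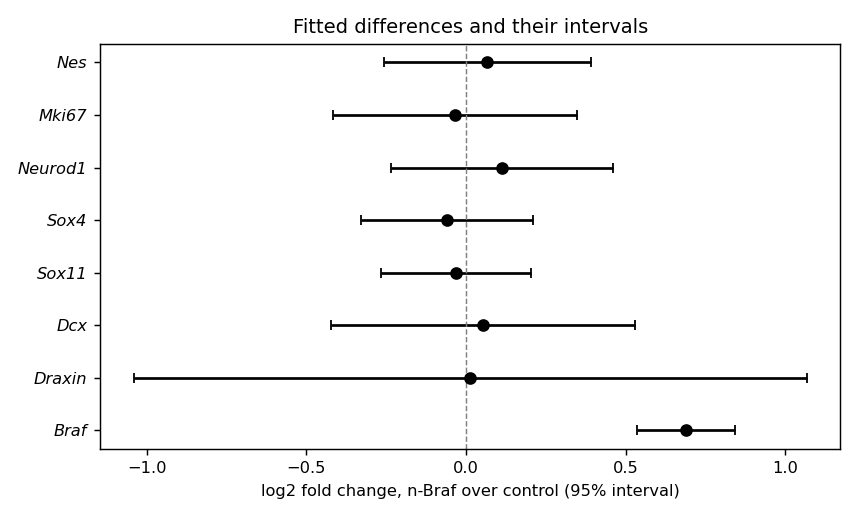
Fitted log2 fold change of n-Braf over control on the horizontal axis, with 95% intervals from the quasi-likelihood fit, for the 7 neurogenesis genes and, for scale, Braf. All 7 intervals include 0, from the narrowest for Sox11 to the widest for Draxin, while Braf lies at 0.69.

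Nes (ENSMUSG00000004891) encodes nestin, an intermediate filament protein of neural stem cells that also occurs in blood vessel walls. It lies on chromosome 3 at 87971078 to 87980451 on the plus strand (GRCm38, the assembly of mm10). It had 16.6, 17.2 and 12.5 CPM in n-Braf 1, 2 and 3, against 15.6, 12.8 and 15.8 CPM in controls 1, 2 and 3. Both the highest and the lowest library were n-Braf, so the control values lay within the n-Braf range. The log2 fold change was 0.067 (SE 0.14, quasi-likelihood adjusted p = 0.972). Its sign changed without n-Braf 2 (-0.020), without control 2 (-0.025) and without controls 1 and 2 together (-0.031).

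Mki67 (ENSMUSG00000031004), on chromosome 7 at 135689784 to 135716361 (minus strand), encodes the Ki-67 protein of dividing cells. It had 134, 133 and 161 counts in n-Braf and 133, 130 and 112 counts in the controls. Scaled to library size these were 4.19, 4.19 and 5.48 CPM in n-Braf, against 4.96, 4.86 and 4.36 CPM in the controls. The n-Braf 3 library was the highest and the other n-Braf libraries the lowest, so the groups overlapped fully. The log2 fold change was -0.034 (SE 0.17, adjusted p = 0.991), and it was positive without n-Braf 1, n-Braf 2 or control 1, at 0.00040 to 0.032.

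Other genes of dividing cells were described from a list of replication and mitosis genes. Of 34 listed, 27 were tested, 14 higher and 13 lower in n-Braf, and their median log2 fold change was 0.025. None of the 27 passed the adjusted or the unadjusted threshold in the quasi-likelihood test. In 3 of the 27, Mcm4, Mcm7 and Cenpe, every n-Braf library lay below every control, and in 0 above, a share near the 11.5% of all genes whose groups did not overlap. The replicative helicase genes Mcm4 and Mcm7 had fitted log2 differences of -0.32 for Mcm4 (SE 0.14) and -0.24 for Mcm7 (SE 0.13). Gins2, another replication gene, had 2.22, 4.88 and 8.07 CPM in n-Braf, against 2.54, 2.77 and 3.11 CPM in the controls, and so spread widely among the n-Braf mice. Mki67 is shared by all dividing cells of the tissue. Markers of oligodendrocyte precursors, the other main dividing population of the adult brain, had 8 of 11 genes higher and 3 lower in n-Braf (median 0.045), and 0 of 11 passed the adjusted threshold. The 2 genes with an unadjusted p under 0.05 in the quasi-likelihood test were lower. Without n-Braf 1, n-Braf 3 or control 3 the markers split into 6 higher and 5 lower. Their summed level ranged from 232.2 to 286.2 CPM in n-Braf mice and from 250.5 to 291.6 CPM in the controls. Their part in the Mki67 values was not tested.

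Stem cell and radial glia-like genes had a median log2 fold change of 0.018, with 10 of 16 higher, 6 lower and 0 past the adjusted threshold. This lean did not hold when libraries were left out, with 5 higher and 11 lower without n-Braf 3 (median -0.057), and 6 higher and 10 lower without n-Braf 2 (-0.014) or without control 1 (-0.0094). The median was also negative without control 2 (-0.017) and without control 3 (-0.022). Many of them, such as Sox2, Sox9 and Gfap, are also astrocyte genes. Lpar1, a lysophosphatidic acid receptor of neural stem cells that oligodendrocytes express as well, had 19.3, 15.04 and 18.6 CPM in n-Braf, against 29.0, 17.7 and 26.2 CPM in the controls. It was the only gene of that list with an unadjusted p under 0.05 (log2 fold change -0.46, SE 0.18, adjusted p = 0.685). Nr2e1, a nuclear receptor that maintains stem cells, was at 0.30 (SE 0.15) and Hes5, a target of Notch signalling, at 0.40 (SE 0.23). Vessel markers, which bear on Nes, had medians of 0.029 for endothelium (5 of 9 higher) and -0.080 for mural cells (2 of 8 higher). The endothelial markers summed to between 160.5 and 178.3 CPM in n-Braf mice and between 153.2 and 179.8 CPM in the controls, and the mural markers to between 140.0 and 176.2 CPM in n-Braf mice and between 144.2 and 194.6 CPM in the controls. Their part in the Nes values was not tested.

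**Figure D2:**
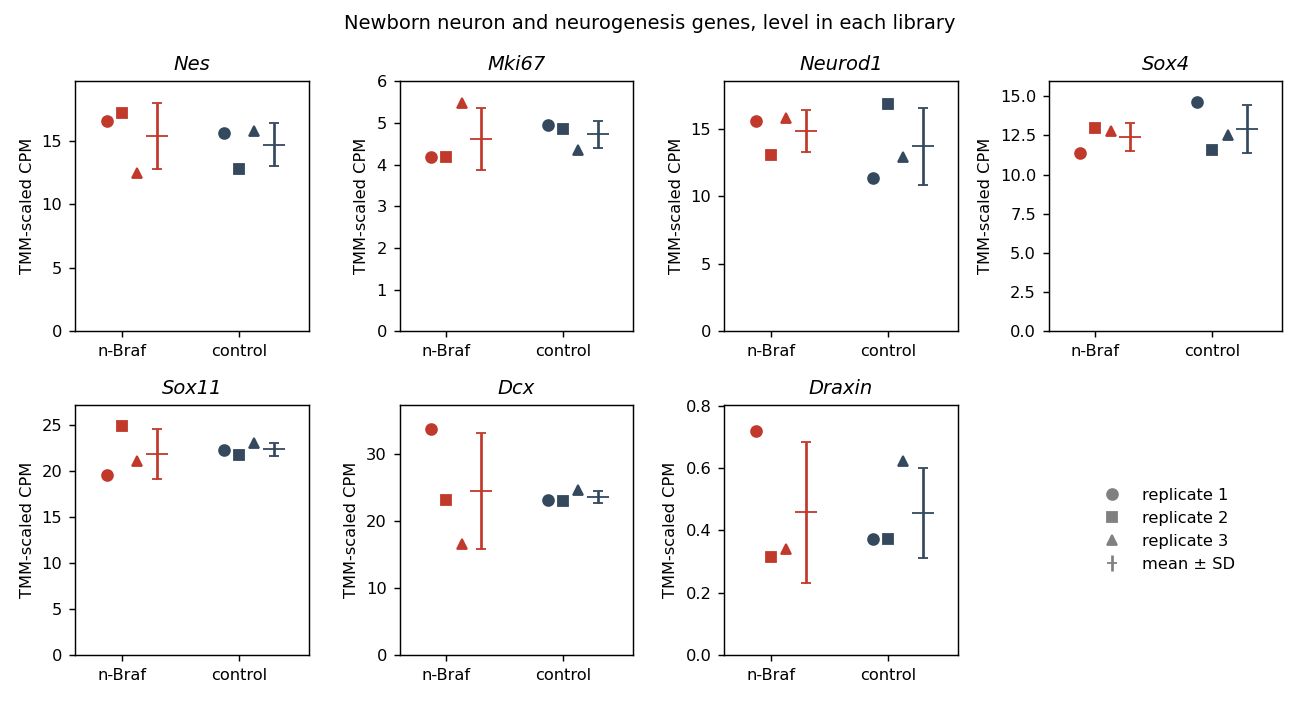
Level of each neurogenesis gene in TMM-scaled CPM (vertical axes, each from 0) for the 3 n-Braf and 3 control libraries, with symbols for the replicate number and bars for the mean ± SD. The groups overlap in all 7 genes, and Dcx spreads from 16.5 to 33.6 CPM in n-Braf but only from 22.9 to 24.6 CPM in the controls.

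Neurod1 (ENSMUSG00000034701), on chromosome 2 at 79452521 to 79456751 (minus strand), encodes a basic helix-loop-helix factor required for granule neuron formation and still expressed in mature granule neurons. It had 15.6, 13.1 and 15.8 CPM in n-Braf, against 11.3, 16.9 and 12.9 CPM in the controls. Control 2 was the highest library and control 1 the lowest, so the n-Braf values lay within the control range. The log2 fold change was 0.11 (SE 0.15, adjusted p = 0.953), from -0.0084 without control 1 to 0.29 without control 2. All 6 of its expected counts were fractions, and its span overlaps Cerkl on the same strand in the GENCODE M21 annotation. Part of its reads may therefore have been shared with another gene.

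Sox4 (ENSMUSG00000076431, chromosome 13 at 28948919 to 28953713, minus strand) and Sox11 (ENSMUSG00000063632, chromosome 12 at 27334264 to 27342574, minus strand) are intronless genes of the SoxC family, high-mobility-group factors that switch on neuronal genes in newly committed neurons. Sox4 had 11.4, 12.997 and 12.8 CPM in n-Braf, against 14.6, 11.6 and 12.5 CPM in the controls. Sox11 had 19.6, 24.9 and 21.1 CPM in n-Braf, against 22.2, 21.7 and 23.0 CPM in the controls. The n-Braf 1 library was the lowest of all 6 in both genes, and the groups overlapped in both. Log2 fold changes were -0.059 for Sox4 (SE 0.12, adjusted p = 0.972) and -0.032 for Sox11 (SE 0.10, adjusted p = 0.987). Over the 6 libraries the root mean square difference between the log2 deviations of Sox4 and Sox11 was 0.12, the smallest of the 21 pairs among the 7 genes. The sign turned without control 1 for Sox4 (0.039) and without n-Braf 1 for Sox11 (0.039). Sox12, the remaining SoxC gene, was on the list of relatives described below.

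Other genes of intermediate progenitors and neuronal commitment had a median log2 fold change of 0.030, with 5 of 8 higher and 3 lower. Without n-Braf 3 the split was 4 and 4 (median -0.055). None of the 8 passed either threshold. Insm1, a zinc finger factor of neuronal progenitors, had 4.26, 3.997 and 3.68 CPM in n-Braf, against 3.69, 3.55 and 3.08 CPM in the controls (log2 fold change 0.21, SE 0.17). Neurod6, a relative of Neurod1 in mature pyramidal neurons, was at 0.22 (SE 0.16), Bhlhe22 at -0.12 (SE 0.14) and Sox21 at 0.17 (SE 0.20).

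Dcx (ENSMUSG00000031285), on chromosome X at 143855842 to 143933311 (minus strand), encodes doublecortin, the microtubule-binding protein used to count neuroblasts. It had 1075, 733 and 486 counts in n-Braf 1, 2 and 3, and 620, 613 and 631 counts in controls 1, 2 and 3. These were 33.6, 23.1 and 16.5 CPM in n-Braf, against 23.1, 22.9 and 24.6 CPM in the controls. The n-Braf 1 library was the highest of all 6 and n-Braf 3 the lowest, while the controls lay close together between them. The means were 24.4 ± 8.63 CPM in n-Braf mice and 23.5 ± 0.897 CPM in the controls (SD, n = 3 each). On the log2 scale the SD of Dcx was 0.51 in n-Braf and 0.054 in the controls, beside median SDs over all genes of 0.161 in n-Braf and 0.163 in the controls. The log2 fold change was 0.054 (SE 0.21, adjusted p = 0.989). A single library set its sign, since it was -0.25 without n-Braf 1 (unadjusted p = 0.121) and 0.27 without n-Braf 3 (unadjusted p = 0.116), both from the quasi-likelihood test. The n-Braf 3 mouse was the oldest, at 34 weeks, and the n-Braf 1 mouse was 33 weeks old. The n-Braf 2 mouse, between them in Dcx at 23.1 CPM, was the youngest of the group at 32 weeks. Control 3, the youngest mouse of all at 31 weeks, had 24.6 CPM. With age as a covariate the log2 fold change of Dcx was 0.30 (unadjusted p = 0.338 in the quasi-likelihood test). Ages were 33, 32 and 34 weeks in n-Braf against 32, 32 and 31 weeks in the controls. Age and group are therefore hard to separate in that fit.

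Draxin (ENSMUSG00000029005), on chromosome 4 at 148098437 to 148130698 (minus strand), encodes a secreted axon guidance protein. It was the rarest of the 7 genes, with 23, 10 and 10 counts in n-Braf and 10, 10 and 16 counts in the controls. A count of 10 has a 95% exact Poisson interval of 4.80 to 18.4, and a count of 23 one of 14.6 to 34.5, which cover counting error only. The n-Braf 1 library was the highest at 0.720 CPM and control 3 followed at 0.623 CPM, while the other libraries lay between 0.315 and 0.374 CPM. The log2 fold change was 0.013 (SE 0.47, adjusted p = 0.998). Its sign turned without n-Braf 1 (-0.47), control 1 (-0.11) or control 2 (-0.11), so no direction can be read from it.

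Other immature neuron genes had a median log2 fold change of 0.028, with 13 of 20 higher, 7 lower and 0 past the adjusted threshold. Single n-Braf libraries set these counts, since 5 were higher and 15 lower without n-Braf 1 (median -0.045), and 16 higher and 4 lower without n-Braf 3 (median 0.094). Without controls 1 and 2 together, 9 were higher and 11 lower (median -0.010). Cd24a, a surface glycoprotein of neuroblasts that ependymal cells also carry, had 3.44, 2.39 and 2.18 CPM in n-Braf, against 5.26, 5.39 and 3.82 CPM in the controls. Its groups did not overlap (log2 fold change -0.85, SE 0.23, quasi-likelihood adjusted p = 0.543). Ependymal markers moved with it, since all 9 tested were lower in n-Braf and summed to between 24.9 and 30.4 CPM there, against 68.5, 57.7 and 36.9 CPM in controls 1, 2 and 3. Their part in the Cd24a values was not tested. Stmn2, a microtubule-regulating stathmin, had 154.3, 131.0 and 122.9 CPM in n-Braf, against 114.1, 112.1 and 126.2 CPM in the controls (log2 fold change 0.21, SE 0.092, adjusted p = 0.730). Gap43, a protein of growing axons, had 73.2, 64.5 and 39.4 CPM in n-Braf, against 51.5, 44.8 and 51.1 CPM in the controls, with n-Braf 1 highest and n-Braf 3 lowest as for Dcx.

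The spread of Dcx among n-Braf mice went with differences between those libraries in other gene groups. Of the 20 immature neuron genes, 11 had n-Braf 1 highest and n-Braf 3 lowest among the 3 n-Braf libraries, or 55% against 18.3% of all genes tested. This order was taken from Dcx, and of the 7 neurogenesis genes only 1, Dcx itself, had it (14.3%). It was also found in 50% of mural markers, 44.4% of endothelial markers and 41.4% of the niche genes described below. The 20 immature neuron genes summed to 1608, 1446 and 1331 CPM in n-Braf 1, 2 and 3, far above Dcx. How much of that came from young neurons was not tested. The mature dentate granule neuron list had another order, with n-Braf 2 the lowest n-Braf library in 8 genes and n-Braf 1 in 4. In 12 of its 12 genes n-Braf 3 was the highest n-Braf library, against 34.8% of all genes, and the 12 genes summed to 556.8, 580.2 and 868.4 CPM in n-Braf 1, 2 and 3, against 673.3, 728.0 and 650.0 CPM in the controls. Dsp, the desmosomal protein of granule neurons, had 48.3, 52.4 and 121.1 CPM in n-Braf, against 100.2, 97.4 and 78.7 CPM in the controls. Lct had 16.8, 14.5 and 46.4 CPM in n-Braf, against 27.0, 34.0 and 26.7 CPM in the controls. Both genes were named after their values were seen. For this sum and for Dsp and Lct the controls lay within the n-Braf range. In Plk5, a polo-like kinase gene of the same list, every n-Braf library lay below every control, at 5.32, 4.66 and 7.32 CPM in n-Braf, against 8.35, 8.11 and 7.44 CPM in the controls.

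Among the neurogenesis genes, Mki67 and Neurod1 were highest in n-Braf 3 among the n-Braf libraries, as the granule list was, whereas Nes and Dcx were lowest there. Markers of neighbouring neocortex had mean log2 deviations from the average over 6 libraries of 0.190, 0.188 and -0.097 in n-Braf 1, 2 and 3, and of -0.185, -0.203 and 0.108 in the controls. Of the 12 neocortex markers, 6 had n-Braf 1 as the highest n-Braf library, and 5, or 41.7%, ran from n-Braf 1 as the highest to n-Braf 3 as the lowest, as Dcx did, against 18.3% of all genes. Their part in the Dcx values was not tested. Markers of subventricular zone neuroblasts, another population that carries Dcx, had a median log2 fold change of -0.13 (2 of 8 higher), and n-Braf 1 was the highest n-Braf library in 0 of the 8. Pax6 of this list is also on the stem cell list, and the part of such neuroblasts in the Dcx values was not tested. With the mean of the granule neuron list as a covariate, a setting chosen after seeing the data, the log2 fold changes were -0.16 for Dcx, -0.064 for Nes, 0.053 for Mki67 and 0.17 for Neurod1, and 0 of 7 genes passed the adjusted threshold. How much the share of dentate gyrus in each sample contributed to the values was otherwise not tested.

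**Figure D3:**
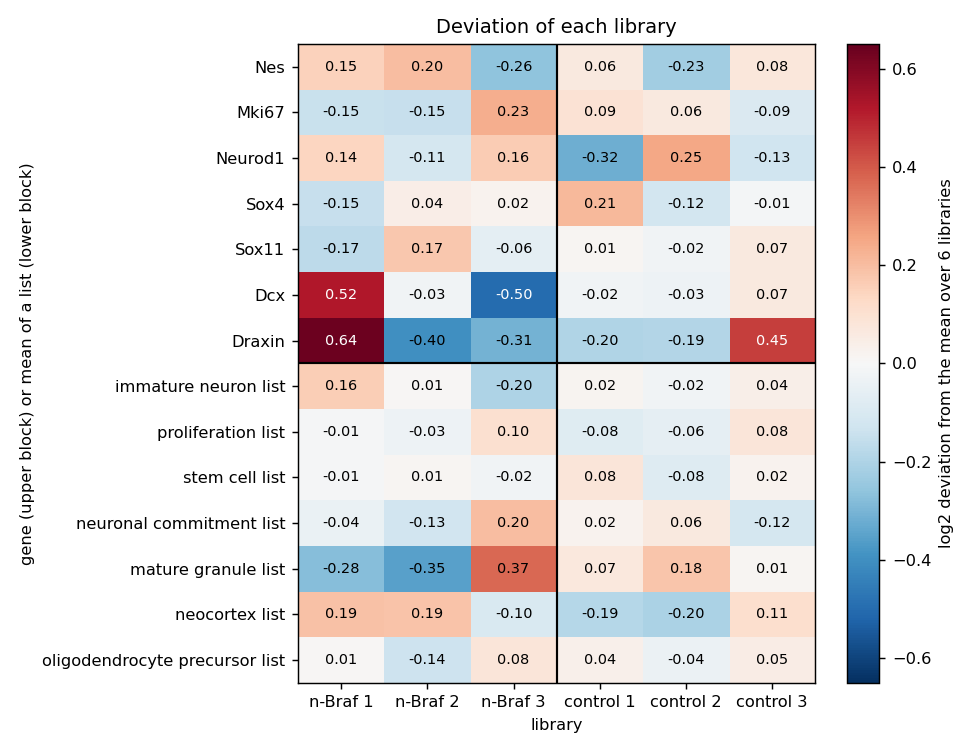
Log2 deviation of each library (columns) from the mean over the 6 libraries, for the 7 neurogenesis genes (upper block) and for the mean of 7 gene lists (lower block), with n-Braf left of control. Dcx runs from 0.52 in n-Braf 1 to -0.50 in n-Braf 3, and the mature granule list stands at -0.28, -0.35 and 0.37 in n-Braf 1, 2 and 3.

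The gene most like Dcx over the 6 libraries was Slc41a3, a gene of the SLC41 family of magnesium carriers with a mean of 1.37 CPM. Likeness was the root mean square difference between log2 deviations, and it was 0.077 for Slc41a3 among 16896 genes with a mean of at least 1 CPM. Neil2, a DNA repair glycosylase gene, had rank 5 at 0.105, and the other 3 of the nearest 5 were unnamed gene models. Of the neurogenesis genes Nes came closest to Dcx, at 0.22 and rank 655, while Sox11, Sox4, Neurod1 and Mki67 had ranks of 9425 to 13716. With 6 libraries such nearness is a description of these samples.

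Per kilobase of merged exons, Neurod1 was the most abundant of the 7 genes, at 5.43 ± 0.562 CPM per kb in n-Braf and 5.02 ± 1.04 CPM per kb in the controls. Sox11 had 2.63 ± 0.329 CPM per kb in n-Braf and 2.69 ± 0.0824 in the controls, and Sox4 had 2.58 ± 0.186 in n-Braf and 2.69 ± 0.324 in the controls. Nes followed at 2.40 ± 0.402 in n-Braf and 2.30 ± 0.262 in the controls, and Dcx at 1.93 ± 0.682 in n-Braf and 1.86 ± 0.0709 in the controls. Levels of Sox11, Sox4, Nes and Dcx per kb did not differ beyond their spread in n-Braf, where Dcx spread most. In the controls Dcx lay below Sox11, Sox4 and Nes by more than their SDs. Mki67 lay lower, at 0.459 ± 0.0741 in n-Braf and 0.470 ± 0.0320 in the controls, and Draxin lowest, at 0.0881 ± 0.0436 in n-Braf and 0.0878 ± 0.0277 in the controls. Calb1, the calbindin gene of the mature granule neuron list, had 11.9 CPM per kb in n-Braf and 9.89 in the controls. Of the 12 genes of that list, 3 were higher and 9 lower in n-Braf by fitted fold. The merged length counts every annotated exon, so a gene expressed from a short isoform is understated.

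Family relatives of the 7 genes had a median log2 fold change of 0.029, with 5 of 8 higher and 0 past the adjusted threshold, Sox12 among them. Dclk1, a doublecortin-like kinase gene abundant in mature neurons, had 618.3 ± 31.4 CPM in n-Braf mice and 524.5 ± 26.5 CPM in the controls (SD, n = 3 each), without overlap (log2 fold change 0.24, SE 0.070, adjusted p = 0.554). Its relatives went different ways, with Dclk2 at 0.081 (SE 0.066) and Dclk3 at -0.33 (SE 0.17). Synm, an intermediate filament gene of astrocytes and vessel walls, was at -0.16 (SE 0.070, adjusted p = 0.730).

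Signals of the neurogenic niche, the Wnt, BMP, sonic hedgehog, Notch and growth factor genes that surround the stem cells, had a median log2 fold change of -0.068. Of the 29 tested, 11 were higher and 18 lower in n-Braf, and 0 passed the adjusted threshold. Without n-Braf 3 the split was 14 higher and 15 lower (median -0.024), and without controls 1 and 2 together 13 higher and 16 lower (-0.0091). Markers of the leptomeninges had the same highest and lowest library as the list. Choroid plexus markers were also highest in control 1, at a mean log2 deviation of 3.54. In control 2 they stood at 2.72, while the niche genes stood at -0.024. The mean log2 deviations of the niche genes were lowest in n-Braf 3 at -0.222 and highest in control 1 at 0.164, and those of the leptomeninges were lowest in n-Braf 3 at -1.15 and highest in control 1 at 1.14. All 12 choroid plexus markers and 6 of 7 leptomeningeal markers were lower in n-Braf, with medians of -4.004 for choroid plexus and -0.64 for leptomeninges. The choroid plexus median rested on controls 1 and 2, and the leptomeningeal median on control 1. The leptomeningeal median was 0.085 without control 1 and -0.78 without control 2. The choroid plexus median was -0.051 without controls 1 and 2 together. Their part in the niche values was not tested. At an unadjusted p of 0.05, 1 was higher, the receptor gene Fgfr1 (log2 fold change 0.17, SE 0.074, adjusted p = 0.730), and 1 lower, Smo, the transducer of hedgehog signals (-0.42, SE 0.17, adjusted p = 0.713). Smo had 11.0 ± 1.72 CPM in n-Braf mice and 14.8 ± 3.28 CPM in the controls (SD, n = 3 each). Lef1, a Wnt effector that endothelium also expresses, was at -0.45 (SE 0.21) and Bmp4 at -0.84 (SE 0.40), a gene with 0.753 ± 0.302 CPM in n-Braf mice and 1.36 ± 0.485 CPM in the controls.

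**Figure D4:**
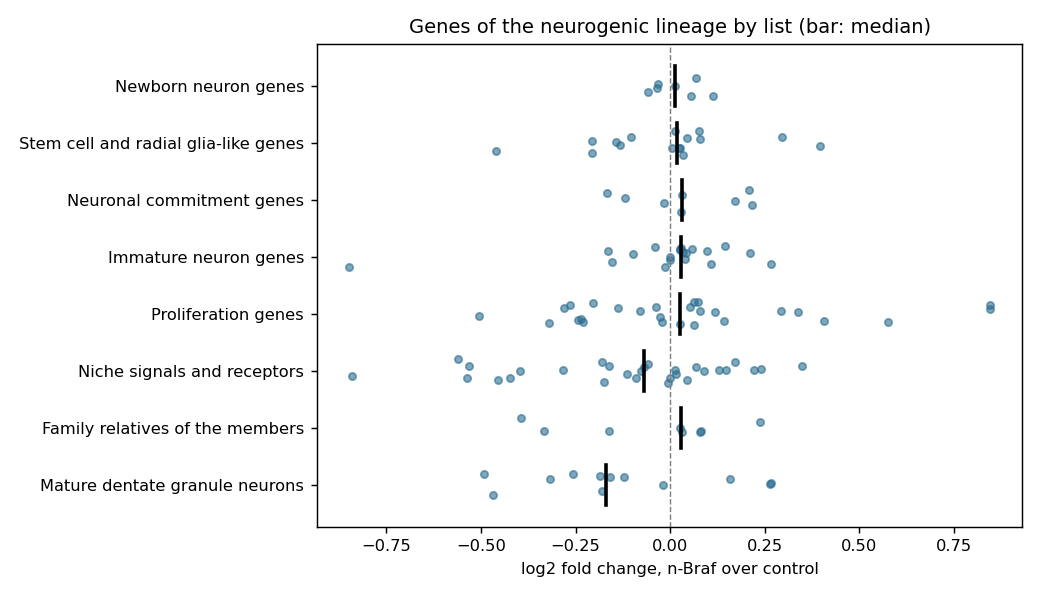
Log2 fold change of n-Braf over control for every tested gene of 8 lists (points, spread vertically for visibility), with the median of each list as a bar. Medians lie between -0.17 for the mature granule list and 0.030 for neuronal commitment genes, and no point passed the adjusted threshold.

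The authors' deposited table also called 0 of these 7 genes. In it the log2 fold changes of the 7 ran from -0.059 for Sox4 to 0.11 for Neurod1, and each adjusted p was 0.9997. That table has 0.141% of its genes at an adjusted p under 0.05, and it rests on the same counts, so it is not independent evidence.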

How the data were processed

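Hippocampal RNA of 6 mice was sequenced from 10.0 ng of total RNA per library with a stranded SMART-Seq kit, per the labels' protocols. Per the submitters' processing notes, bcl2fastq 2.20, fastp 0.20.1, STAR, RSEM and edgeR 3.36.0 were used with the mm10 genome. The sources used here name no other version, strand setting or annotation. Whether reads of a gene and an overlapping antisense gene were told apart is therefore not known. Such genes lie opposite Mki67, Neurod1, Sox4 and Draxin. Expected counts of Mki67, Sox4 and Draxin were whole numbers in every library, and those of Neurod1 were fractions in all 6. The deposited table gives each gene's expected counts, with the authors' log2 fold change, mean log2 CPM, p-value and adjusted p-value.

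Expected counts were rounded and filtered with filterByExpr (minimum count 10), which kept 20604 genes, and scaled by TMM. Group was the only term of the quasi-likelihood test of edgeR 4.0.16 (R 4.3.3), fitted over all genes and 6 libraries. The SE is the log2 fold change divided by the square root of F, and 95% intervals use the fit's degrees of freedom. Each mouse has its own number in the labels, so replicates are separate animals, and no batch is given. Counting noise was exceeded between any pair of libraries (chi-square per degree of freedom 8.99 to 70.7). The log2 CPM behind deviations and likeness has a prior count of 2. Gene positions are those of GENCODE M21.

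The members, lists and most alternatives were chosen with earlier results of these data known. The rule named the 7 genes, up to 4 genes per list with the smallest unadjusted p, and the 5 genes nearest to Dcx, leaving out unnamed models. Prox1, Sox2, Gfap, Sox12 and Bmp4 fall outside it, and Dsp and Lct were named after their values were seen. Genes of the lists without a row were not analysed here. Alternatives were other scalings, DESeq2 1.42.0, limma-voom (limma 3.58.1), the exact test, other filters, a replicate block, age, leaving out libraries or abundant genes, and an adjusted p of 0.1.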

Additional observations from a re-analysis of the deposited data

How the results depend on the processing

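Of the 7 neurogenesis genes, 0 passed the adjusted threshold under any of the 20 alternatives run, leaving out each library included (lowest and highest count 0). Over all genes the quasi-likelihood count was 0, and 0 to 82 without 1 library, the 82 without control 3. It was 79 by DESeq2 (29 higher, 50 lower), 66 by the exact test (15 higher, 51 lower), 3 without controls 1 and 2 together, 1 without mitochondrial and the 20 most abundant genes, 3 with the granule neuron list as a covariate, and 2 at an adjusted p of 0.1. Signs of these small differences were not stable. Draxin was -0.0045 with library sizes alone, -0.050 by limma-voom, -0.030 with the replicate block, -0.43 without controls 1 and 2, and -0.15 with the granule covariate, and the mean CPM filter removed it. With age as a covariate Neurod1 was -0.070, Sox11 0.11, Nes 0.34 (edgeR adjusted p = 0.769), Mki67 -0.29 and Dcx 0.30, and the list medians were 0.16 for immature neuron, -0.24 for commitment and -0.57 for mature granule genes. Without n-Braf 1, Mki67 was 0.029, Sox11 0.039, Dcx -0.25 and Draxin -0.47. Without n-Braf 2, Nes was -0.020 and Mki67 0.032. Without control 1, Mki67 was 0.00040, Neurod1 -0.0084, Sox4 0.039 and Draxin -0.11. Without control 2, Nes was -0.025 and Draxin -0.11. Without controls 1 and 2, Nes was -0.031, Mki67 0.082 and Dcx -0.0072. With the granule covariate Nes was -0.064, Mki67 0.053 and Dcx -0.16. The cause was not tested. Same-numbered libraries had correlations across genes of deviations from their group means of 0.103, -0.046 and -0.014. The differently numbered n-Braf 3 and control 2 had 0.155. No likeness by replicate number was seen, but such correlations cannot show whether mice were paired by litter or batch. With the replicate block 0 genes were called, as without it. Without 1 library at a time the log2 fold changes reached highs of 0.20 (Nes) and 0.27 (Dcx) without n-Braf 3, 0.29 (Neurod1) without control 2 and 0.30 (Draxin) without control 3, and lows of -0.18 (Mki67) without n-Braf 3, -0.13 (Sox4) without control 2 and -0.14 (Sox11) without n-Braf 2. Depth limits Draxin most, at 10 to 23 counts per library.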

Other observations

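The 3 n-Braf libraries also differed among themselves in cell types outside the neurogenic lineage. All 7 tested markers of the leptomeninges, the membranes that cover the brain, were highest in n-Braf 1 and lowest in n-Braf 3 within n-Braf, the order in which Dcx ran, against 18.3% of all genes. They summed to 95.7, 72.3 and 31.1 CPM in n-Braf 1, 2 and 3, against 192.0, 94.3 and 75.9 CPM in controls 1, 2 and 3. Among them Dcn, the proteoglycan decorin, had 17.7 ± 7.41 CPM in n-Braf mice and 28.8 ± 2.83 CPM in the controls (SD, n = 3 each). The part of these cells in the Dcx values was not tested. All 7 microglial markers were lowest in n-Braf 2 within n-Braf, and they summed to 139.1, 99.9 and 139.6 CPM in n-Braf 1, 2 and 3, against 121.0, 123.1 and 151.6 CPM in the controls.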
